A study of Mus musculus with 15 samples.

Results

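Collagens are the matrix proteins that give an artery wall and an atherosclerotic cap their strength, and each molecule is assembled from 3 chains of the same or of different genes. The genes described here are those whose annotated symbol has the form of a collagen alpha chain (Col1a1, Col4a2 and so on), measured by a probe set, a group of short oligonucleotides on the array, that is annotated to exactly 1 gene. They numbered 42 of the 18193 genes measured and fell into 11 fibrillar chains, 8 basement membrane chains and 23 other chains. The chains were measured in foam cells, the lipid-filled macrophages of a lesion, cut by laser from sections of the aortic sinus of C57BL/6 mice with the genotype ApoE-/-. All 3 groups carry this genotype, which raises plasma cholesterol and gives lesions even on chow, and each group had 5 arrays. The CHOW mice ate regular chow to 22 weeks. The 14w-WD mice ate chow for 8 weeks and then a western diet for 14 weeks. The 2w-WD mice received the western diet for 2 weeks, after 20 weeks of chow per the sample labels, whereas the series text puts the diet between weeks 22 and 24, so the age of this group is not settled.

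Fibrillar chains form the long banded fibres of tendon, skin and vessel wall, with types I and III the main ones of an artery. Basement membrane chains, led by type IV, form the sheets under endothelium and around muscle cells, and smooth muscle cells and fibroblasts are the usual source of most of the others. A collagen chain is folded and hydroxylated in the endoplasmic reticulum, trimmed outside the cell and cross-linked, and macrophages take up and degrade collagen as well as live among its fibres.

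The promoters of 4 chains are shown because their genes carry the results that follow. Col1a2 and Col3a1 are fibrillar chains whose levels each varied with those of Col1a1, and Col6a3 and Col8a1 were higher in 14w-WD than in 2w-WD. The sequences come from RefSeq on GRCm38.p6 and run 5′ to 3′ on the strand of the gene, up to the base before its annotated start. Capitals mark 3 motifs searched on both strands, the TATA box (TATAAA), the CCAAT box (CCAAT) and the GC box (GGGCGG, or CCGCCC on the other strand), and none of the matches overlapped another.
Col1a2, chr6:4505368-4505617, plus strand: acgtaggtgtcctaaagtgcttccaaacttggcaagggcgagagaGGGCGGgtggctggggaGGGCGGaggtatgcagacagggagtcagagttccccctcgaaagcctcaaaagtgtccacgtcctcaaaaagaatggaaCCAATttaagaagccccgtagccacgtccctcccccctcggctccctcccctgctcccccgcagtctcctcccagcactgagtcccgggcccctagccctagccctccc
Col3a1, chr1:45311288-45311537, plus strand: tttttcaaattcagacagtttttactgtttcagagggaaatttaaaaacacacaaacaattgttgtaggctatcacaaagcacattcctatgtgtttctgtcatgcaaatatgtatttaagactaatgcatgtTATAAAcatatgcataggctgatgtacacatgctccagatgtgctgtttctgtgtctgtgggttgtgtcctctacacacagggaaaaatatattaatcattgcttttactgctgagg
Col6a3, chr1:90844002-90844221, minus strand: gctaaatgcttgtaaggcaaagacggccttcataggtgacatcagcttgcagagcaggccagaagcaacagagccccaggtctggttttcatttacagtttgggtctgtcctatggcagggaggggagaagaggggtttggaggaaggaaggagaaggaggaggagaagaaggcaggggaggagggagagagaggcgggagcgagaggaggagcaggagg
Col8a1, chr16:57754738-57754987, minus strand: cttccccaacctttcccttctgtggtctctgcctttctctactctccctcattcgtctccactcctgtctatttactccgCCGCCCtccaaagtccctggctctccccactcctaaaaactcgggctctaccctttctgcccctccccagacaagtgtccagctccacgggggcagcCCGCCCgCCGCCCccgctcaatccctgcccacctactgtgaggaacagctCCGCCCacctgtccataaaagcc

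The Col1a2 window held 2 GC boxes and 1 CCAAT box, and the Col3a1 window held 1 TATA box and neither of the other motifs. Col8a1 had 4 GC boxes, whereas the 220 bases before Col6a3 held none of the 3 motifs. Over all 32851 promoters of the RefSeq table, the 250 bases before the start held a GC box in 32.7%, a CCAAT box in 33.8% and a TATA box in 12.4%. Over 220 bases these shares were 28.5%, 31.0% and 9.95%. Of the 42 chains, 33 had a promoter in the table, and 20 of the 33 had a GC box in at least 1 window, 13 a CCAAT box and 5 a TATA box. No chain in the basement membrane class had a TATA box among 7 with a window. A match is a run of letters in a window, not a measured binding site.

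Levels are given as log2(intensity + 16), where the intensity is the value deposited for a probe set and 16 damps the noise of dim ones. Levels of different probe sets cannot be set against each other, so each chain is compared only with itself across arrays. A gene was tested where its mean lay at or above the median of all probe sets, a log2 of 5.66, which kept 11925 genes and 27 of the 42 chains. By class, 8 of 11 fibrillar, 6 of 8 basement membrane and 13 of 23 other chains were kept. On all 15 arrays, 17 chains lay above that level. The 15 chains left out had means from 4.52 to 5.62, and the background of the array itself was not measured. They were the cartilage chains Col2a1, Col9a2, Col9a3, Col10a1 and Col11a2, the basement membrane chains Col4a4 and Col4a6, the membrane-spanning chains Col13a1 and Col17a1, and Col6a4, Col6a5, Col19a1, Col22a1, Col24a1 and Col26a1. Col15a1 was kept with 3 CHOW, 2 2w-WD and 5 14w-WD arrays above the level, and Col23a1 with 5, 0 and 3. Their lower groups thus lie partly or wholly below that level, where signal and background were not told apart.

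The captured cells carried macrophage transcripts on every array, and transcripts of other cells as well. All 12 macrophage markers passed the filter, and their mean log2 level ran from 12.26 to 13.12 for CHOW, 12.18 to 12.69 for 2w-WD and 12.50 to 12.98 for 14w-WD. The 15 heart muscle markers all passed too, with a mean level from 6.82 to 10.88 for CHOW, 9.71 to 12.07 for 2w-WD and 9.16 to 11.41 for 14w-WD. Of the markers of smooth muscle 8 of 11 passed, of fibroblasts 10 of 10, of valve interstitial cells and pericytes 9 of 11, of cartilage 7 of 10 and of endothelium 5 of 10, with Pecam1, Tie1 and Cnn1 among those below the filter. Since these are bulk captures, fewer cells of a type and less RNA per cell cannot be told apart.

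The comparison of 14 weeks with 2 weeks of western diet asks how collagen transcripts in foam cell areas differ between 14w-WD and 2w-WD. The western diet began after 8 weeks in 14w-WD and after 20 or 22 weeks in 2w-WD. Feeding length and age therefore cannot be told apart in this comparison. Col6a3, Col15a1, Col1a1 and Col8a1 were higher in 14w-WD, by log2 1.05 to 1.39, and no chain was lower at the same threshold, an adjusted p under 0.05 in limma. These 4 of 27 chains (14.8%) stand beside 1201 of 11925 genes higher (10.1%) and 137 lower (1.15%), or 11.2% called in all. The share among chains was near that of all genes. Of the fibrillar chains 1 of 8 was higher, of the basement membrane chains 1 of 6 and of the other chains 2 of 13. Where genes are said below to have risen or fallen, they were higher or lower in 14w-WD than in 2w-WD, not followed over time. At an unadjusted p under 0.05, 9 chains were higher and 1 lower, against 25.9% and 6.13% of all genes. The median difference over the 27 chains was 0.27, beside 0.23 over all genes tested, and 21 of the 27 lay above 0, beside 65.2% of genes.

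**Figure D1:**
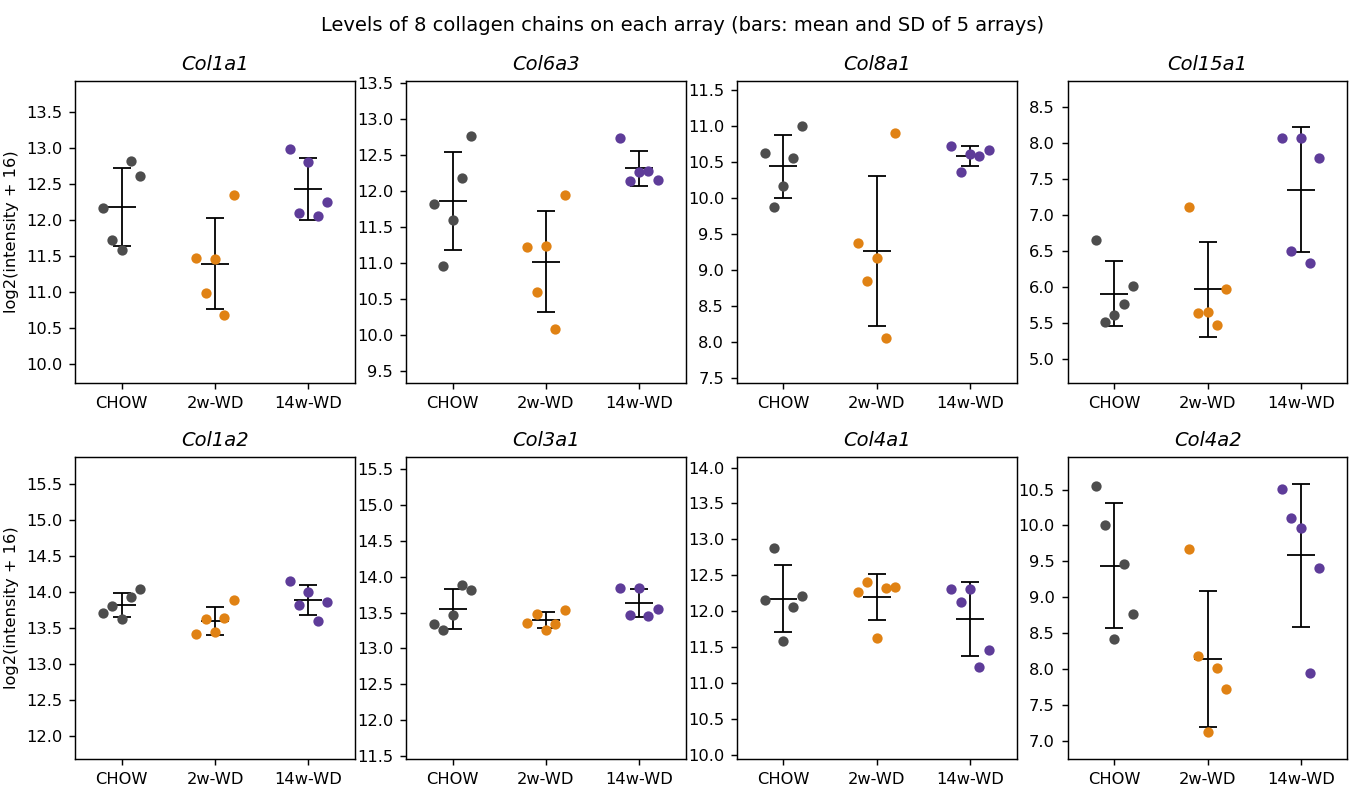
Levels of 8 collagen chains as log2(intensity + 16) on each of the 15 arrays, 5 per group, with points in array order 1 to 5 from left to right, horizontal bars for the group mean and whiskers for the SD. Every vertical axis spans the same number of log2 units, around the middle of its own chain. Col6a3 has all 14w-WD points above all 2w-WD points. The 2w-WD array 5 lies within the CHOW range for Col1a1, Col6a3 and Col8a1. Among Col1a1, Col6a3 and Col8a1, that array lies within the 14w-WD range for Col1a1 only, and above every 14w-WD point for Col8a1.

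Col6a3 encodes a large chain of type VI collagen, which forms the beaded microfilaments around cells. Its log2 levels on CHOW arrays 1 to 5 were 11.82, 10.95, 11.59, 12.17 and 12.77. On the 2w-WD arrays they were 11.22, 10.60, 11.24, 10.08 and 11.95, and on the 14w-WD arrays 12.73, 12.14, 12.26, 12.27 and 12.16. Every 14w-WD array lay above every 2w-WD array, as for 7.06% of all genes, and the CHOW arrays reached into both ranges. The difference of 14w-WD from 2w-WD was 1.30 ± 0.334 (SE) with an adjusted p of 0.0261 in limma. The other chains of the same molecule did not pass the threshold, with differences of 0.04 for Col6a1 (95% interval -0.37 to 0.44) and 0.16 for Col6a2 (-0.21 to 0.53). Col6a1 ran from 12.11 to 13.05 over CHOW arrays, 12.29 to 13.00 over 2w-WD and 12.39 to 13.00 over 14w-WD. Col6a2 ran from 12.46 to 13.25, 12.38 to 12.92 and 12.53 to 13.30 in the same order, so that the groups of both chains overlapped.

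Col15a1, a chain of the outer face of basement membranes, was dim in CHOW and 2w-WD. On CHOW arrays it read 6.65, 5.51, 5.61, 5.76 and 6.00, on 2w-WD arrays 7.10, 5.63, 5.66, 5.47 and 5.96, and on 14w-WD arrays 8.07, 6.50, 8.07, 6.33 and 7.78. Of the 5 14w-WD arrays, 1, 3 and 5 were far above the rest, and 2w-WD array 1 overlapped with the lower 14w-WD arrays. The difference between the western diet groups was 1.39 ± 0.386 (SE; adjusted p = 0.0335 in limma). Its lower values lie near or below the filter level, and the size of the difference depended on the constant added before the log. It was 1.66 with a constant of 1 and 0.94 with one of 64.

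Col1a1 encodes the main chain of type I collagen, the most common fibrillar collagen. It read 12.17, 11.72, 11.58, 12.82 and 12.61 on CHOW arrays, 11.48, 10.99, 11.46, 10.69 and 12.35 on 2w-WD arrays, and 12.98, 12.10, 12.81, 12.05 and 12.25 on 14w-WD arrays. Of the 2w-WD arrays, 4 lay below all the others, and array 5 lay among the 14w-WD arrays. The difference of 14w-WD from 2w-WD was 1.05 ± 0.309 (SE; adjusted p = 0.0402 in limma).

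Col8a1, a short-chain network collagen made by smooth muscle cells and endothelium of injured arteries, varied widely in 2w-WD. It read 10.62, 9.87, 10.16, 10.55 and 11.00 for CHOW, 9.38, 8.84, 9.16, 8.05 and 10.89 for 2w-WD, and 10.72, 10.36, 10.61, 10.58 and 10.66 for 14w-WD. The 14w-WD arrays had an SD of 0.14 and the 2w-WD arrays one of 1.04, since 2w-WD array 5 lay above every 14w-WD array and the other 4 lay below all of them. The difference was 1.32 ± 0.402 (SE; adjusted p = 0.0439 in limma). For Col8a2, the other chain of type VIII, it was 0.06 with a 95% interval of -0.78 to 0.89.

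These 4 calls depend on single arrays. Without 2w-WD array 2, 2w-WD array 4, 14w-WD array 1 or 14w-WD array 3, 0 of 27 chains were called (164 to 260 genes), without 2w-WD array 3 or 14w-WD array 5 there was only Col6a3, without 14w-WD array 2 only Col6a3 and Col15a1, without 14w-WD array 4 there were 7 chains, and without 2w-WD array 1 there were 8. Col8a1 also missed the threshold without CHOW array 3 or 4 or 14w-WD array 4 (adjusted p = 0.0540, 0.0525 and 0.0562 in limma), and Col15a1 without 2w-WD array 5 (0.0538). Over the 15 fits that each left out 1 array, the differences ran from 1.06 to 1.53 for Col6a3, 1.21 to 1.67 for Col15a1, 0.87 to 1.29 for Col1a1 and 1.02 to 1.73 for Col8a1. Without the 3 arrays to which limma's array weights gave the least weight (0.299 to 0.394, against 0.651 or more for the others), CHOW 1, 2w-WD 1 and 2w-WD 4, Col1a1 (0.84) and Col8a1 (0.96) no longer passed, Col6a3 and Col15a1 did, Col4a2 and Col16a1 were higher and Col12a1 was lower. After quantile normalization, which brought the median of all genes from 0.23 to 0.01, Col6a3 (1.145) and Col15a1 (1.143) were called, and the split of called genes went from 1201 higher and 137 lower to 669 and 300.

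**Figure D2:**
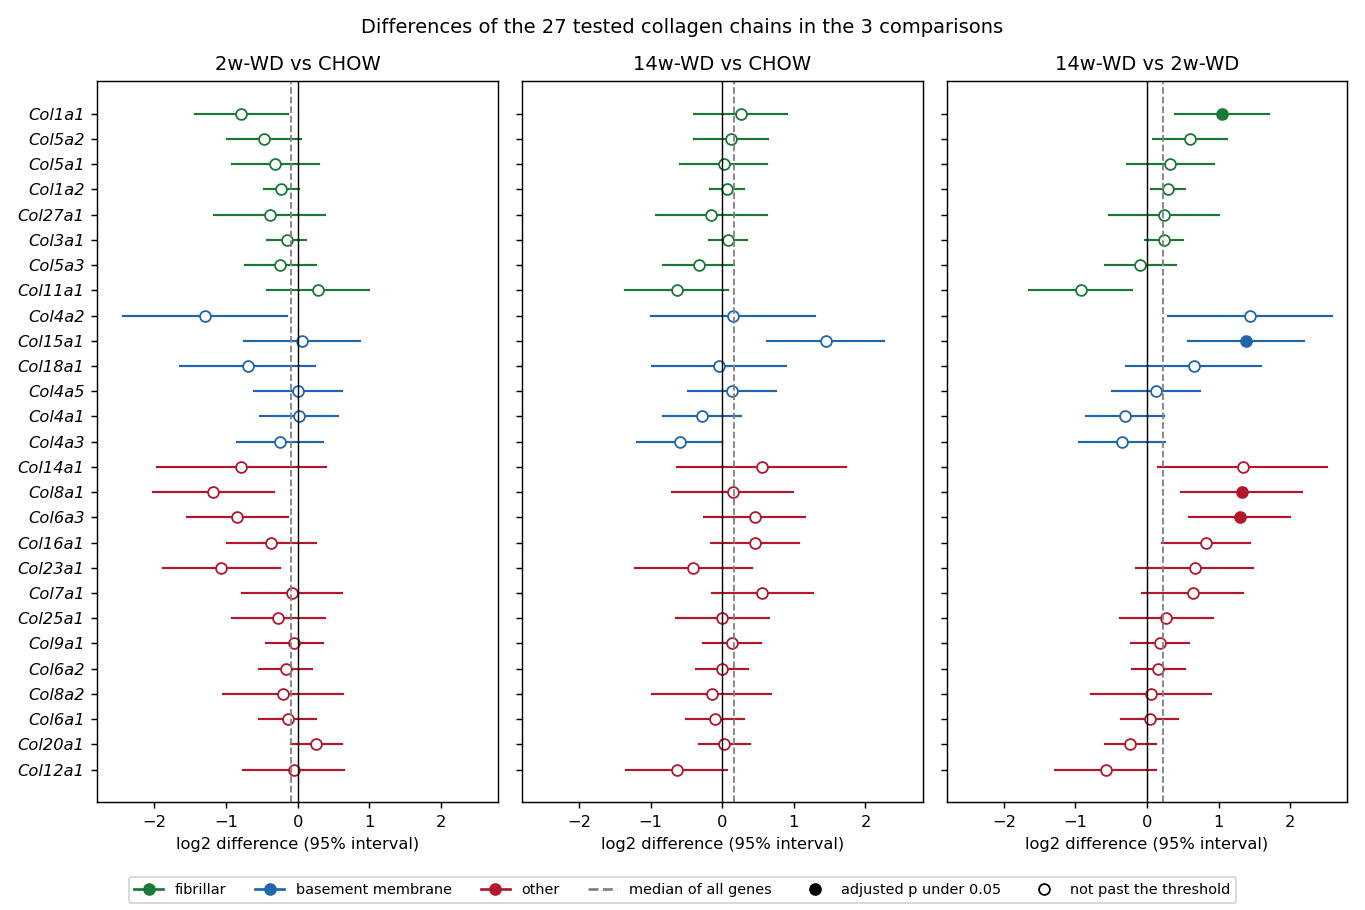
Differences in log2 level for the 27 tested chains in the 3 comparisons, with 95% intervals from limma, coloured by class, where filled points have an adjusted p under 0.05 and the dashed line is the median of all genes tested. In the right panel Col1a1, Col15a1, Col8a1 and Col6a3 are filled, and in the other 2 panels no point is.

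Among the other fibrillar chains, Col1a2 and Col3a1 had small differences. Col1a2, the partner of Col1a1 in type I collagen, read 13.71, 13.80, 13.63, 13.93 and 14.04 for CHOW, 13.41, 13.62, 13.44, 13.64 and 13.88 for 2w-WD, and 14.15, 13.82, 13.99, 13.60 and 13.87 for 14w-WD. Its difference of 0.29 (95% interval 0.05 to 0.53, adjusted p = 0.0976 in limma) did not pass the threshold. Col3a1, the chain of type III collagen, read 13.25 to 13.88 for CHOW, 13.26 to 13.54 for 2w-WD and 13.45 to 13.84 for 14w-WD, a difference of 0.23 (95% interval -0.03 to 0.50). The groups overlapped for both chains.

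Col5a2, a chain of the type V collagen that nucleates fibrils, ran from 12.00 to 13.05 on CHOW arrays, 11.46 to 12.84 on 2w-WD arrays and 12.44 to 13.07 on 14w-WD arrays. It differed by 0.60 (95% interval 0.08 to 1.11) and Col5a1 by 0.33 (-0.28 to 0.94). Col27a1, with a difference of 0.24, and Col5a3, with -0.09, were within their spread. Col11a1, a chain known from cartilage fibrils, had a difference below 0. Its arrays ran from 6.29 to 8.30 for CHOW, 6.74 to 7.61 for 2w-WD and 5.85 to 7.15 for 14w-WD. Its difference of -0.93 had an adjusted p of 0.0797 in limma and did not pass the threshold. Cartilage chains with which it shares fibrils, Col2a1 and Col11a2, were below the filter, as above.

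The type IV chains, the scaffold of basement membranes, had different group means. Col4a1 read 12.16, 12.88, 11.59, 12.06 and 12.21 for CHOW, 12.28, 12.41, 11.63, 12.33 and 12.33 for 2w-WD, and 12.32, 12.14, 12.31, 11.22 and 11.46 for 14w-WD. Col4a2 read 10.55, 10.01, 8.42, 9.47 and 8.77 for CHOW, 9.67, 8.19, 7.13, 8.02 and 7.73 for 2w-WD, and 10.51, 10.10, 9.96, 7.95 and 9.42 for 14w-WD. For Col4a2, 4 of the 5 2w-WD arrays lay below every CHOW array, whereas Col4a1 had no such step. The 14w-WD minus 2w-WD difference was 1.44 for Col4a2 (95% interval 0.30 to 2.59, adjusted p = 0.0852 in limma) and -0.31 for Col4a1 (-0.85 to 0.24, adjusted p = 0.421). A second Col4a1 probe set gave 0.14. The genes start 21 bases apart on opposite strands of chromosome 8 in GRCm38.p6.

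Col4a3, a chain of kidney and lung basement membranes, ran from 5.99 to 6.30 over CHOW arrays, 5.17 to 6.39 over 2w-WD and 4.47 to 6.15 over 14w-WD. It differed by -0.35 (95% interval -0.94 to 0.25) and Col4a5 by 0.12 (-0.49 to 0.74). Col18a1, whose end fragment is endostatin, had a mean of 11.22 ± 0.41 (SD, n = 5) for CHOW, 10.52 ± 1.12 for 2w-WD and 11.17 ± 0.64 for 14w-WD. The 2w-WD arrays of Col18a1 ran from 9.12 to 12.02 and so held both the lowest and the highest of the 15 values. Its difference of 0.65 (95% interval -0.29 to 1.59) was within that spread.

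Of the other chains, Col16a1 differed by 0.82 (adjusted p = 0.0714 in limma) and Col14a1, a fibril-associated chain, by 1.34 (adjusted p = 0.115), with 95% intervals of 0.21 to 1.44 and 0.16 to 2.52. Col14a1 varied widely within groups, from 5.26 to 7.85 in 2w-WD and from 6.16 to 8.94 in 14w-WD. Col12a1, which also lies on fibril surfaces, had means of 7.82 ± 0.68 (SD, n = 5) for CHOW, 7.76 ± 0.56 for 2w-WD and 7.18 ± 0.25 for 14w-WD, a difference of -0.58 (95% interval -1.29 to 0.13). Col7a1 (0.64), Col23a1 (0.66), Col25a1 (0.27), Col9a1 (0.18) and Col20a1 (-0.24) had 95% intervals that include 0.

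Some cell type markers rose in the same comparison, 6 of the 65 distinct genes tested over all 7 lists (9.23%), beside 10.1% of all genes higher and 1.15% lower. In 14w-WD against 2w-WD, 2 of 10 fibroblast markers rose, Pdgfra by 1.95 and Fbln1 by 1.64, with a list median of 0.05. Of the valve interstitial and pericyte markers 2 of 9 rose, Cspg4 by 2.75 and Notch3 by 0.80. Of the smooth muscle markers 1 of 8 rose, Mylk by 2.09, and of the macrophage markers 1 of 12, Tyrobp by 0.38. In the smooth muscle list 6 of 8 lay above 0, with a median of 0.10, and Acta2, at -0.06, was among those below 0. At an unadjusted p under 0.05 in limma, 2 of 8 smooth muscle and 3 of 10 fibroblast markers were higher. At that level 3 of 9 valve and pericyte and 6 of 12 macrophage markers were higher too, beside 25.9% of all genes. In limma none of 15 heart muscle, 5 endothelial or 7 cartilage markers passed (0, 0 and 2 at an unadjusted p under 0.05). The 2 cartilage markers were lower in 14w-WD, and the heart muscle markers had a median of -0.45. The mean level of the smooth muscle markers was 7.67 ± 0.73 (SD, n = 5) for CHOW, 7.31 ± 0.52 for 2w-WD and 7.83 ± 0.42 for 14w-WD, and that of the fibroblast markers 8.62 ± 0.10, 8.57 ± 0.49 and 9.05 ± 0.23. In the same order the macrophage markers had means of 12.76 ± 0.31, 12.43 ± 0.20 and 12.83 ± 0.20 and the valve and pericyte markers 7.80 ± 0.34, 7.40 ± 0.45 and 8.19 ± 0.52. Every marker list except heart muscle had its lowest group mean in 2w-WD, as did most chains and 50.5% of all genes tested. With the smooth muscle mean of each array as a covariate, 0 of 27 chains and 298 genes (2.5%) were called. The differences were then 0.98 for Col1a1, 1.27 for Col6a3, 1.27 for Col8a1 and 0.97 for Col15a1, beside 1.05, 1.30, 1.32 and 1.39 without it. With the heart muscle mean as the covariate, 2 chains, Col6a3 and Col15a1, and 1319 genes (11.1%) were called, and the differences of Col1a1 and Col8a1 were 0.94 and 1.29. The part of the fibroblast, valve and macrophage markers in the collagen differences was not tested.

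Against CHOW, the 2 weeks of western diet left every chain short of the threshold. In limma 0 of 27 chains and 0 of 11925 genes (0%) had an adjusted p under 0.05, and 1164 genes had an unadjusted p under 0.05. Of the chains, 5 were lower and 0 higher at that unadjusted level, which is 18.5% beside 7.3% of genes lower and 2.47% higher. They were Col8a1 at -1.18 (adjusted p = 0.48), Col23a1 at -1.07 (0.485), Col1a1 at -0.79 (0.492), Col6a3 at -0.84 (0.492) and Col4a2 at -1.30 (0.507). Differences below 0 were found for 22 of 27 chains, 7 of 8 fibrillar, 3 of 6 basement membrane and 12 of 13 other, and 38.8% of all genes lay above 0. The median was -0.24 over the chains and -0.10 over all genes. This comparison and the one above share the 2w-WD arrays, so that a low 2w-WD array enters both.

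Col23a1, a membrane-spanning collagen, was the chain in which CHOW and 2w-WD did not overlap, which held for 0.83% of all genes in that direction. Its CHOW arrays read 7.48, 6.25, 5.69, 5.78 and 6.19, its 2w-WD arrays 5.53, 5.55, 5.08, 4.67 and 5.21, and its 14w-WD arrays 6.14, 6.97, 6.13, 4.56 and 5.57. All 2w-WD values lay below the filter level, and the gap between the groups was small, from 5.55 to 5.69. Between CHOW and 2w-WD, 15 of the 65 distinct marker genes tested had an unadjusted p under 0.05 (23.1%, beside 9.76% of all genes). In limma 0 of the 65 were called. The counts that follow are at the unadjusted level, where 7.3% of all genes were lower and 2.47% higher. Of the macrophage markers 6 of 12 were lower, among them C1qa at -1.34 and C1qc at -1.22, which encode chains of complement C1q. C1qb, which encodes the other C1q chain, differed by 0.03 and was 1 of 3 macrophage markers above 0. Of the smooth muscle markers 3 of 8 were lower, Tagln at -1.16, Lmod1 at -1.08 and Myh11 at -0.62. The 2 smooth muscle markers with a difference above 0 were Synpo2 at 1.30 and Des at 0.42. The heart muscle markers had a median difference of 1.43, and 4 of 15 were higher. With their mean as a covariate the median over the 27 chains was -0.14, and 0 chains were called. The part of the macrophage markers in these values was not tested. With the smooth muscle mean as a covariate that median was -0.23, and 0 chains were called.

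After 14 weeks of western diet no chain differed from CHOW at the threshold, and 1 of 11925 genes did (0.00839%) in limma, with 1893 at an unadjusted p under 0.05. Col15a1 came closest, with a difference of 1.44 ± 0.386 (SE; adjusted p = 0.125), and only CHOW array 1, at 6.65, reached into the 14w-WD range. It was the single chain with an unadjusted p under 0.05, or 3.7% beside 15.9% of genes. Next were Col4a3 at -0.59 (95% interval -1.19 to 0.00), Col12a1 at -0.63 (-1.34 to 0.07) and Col11a1 at -0.64 (-1.36 to 0.08). The other chains higher in 14w-WD than in 2w-WD differed from CHOW by 0.26 for Col1a1 (95% interval -0.39 to 0.91), 0.45 for Col6a3 (-0.25 to 1.16) and 0.15 for Col8a1 (-0.70 to 0.99). The median was 0.03 over the chains and 0.16 over all genes, and 16 of 27 lay above 0 beside 65.6% of genes. With array weights, and also without the 3 arrays of lowest weight, Col15a1 and Col16a1 were called, among 2234 and 1353 genes, and without 2w-WD array 1 alone Col15a1 was, among 201 genes.

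Across the 3 groups, 2w-WD had the lowest mean in 19 of 27 chains (70.4%), beside 50.5% of all genes tested. By class this was 6 of 8 fibrillar, 2 of 6 basement membrane and 11 of 13 other chains. The mean level of the 13 other chains was 8.32 ± 0.16 (SD, n = 5) for CHOW, 7.94 ± 0.26 for 2w-WD and 8.40 ± 0.29 for 14w-WD, and that of the 8 fibrillar chains 10.96 ± 0.31, 10.68 ± 0.25 and 10.89 ± 0.21. The groups overlapped in both. Among the 2w-WD arrays, array 5 had the highest mean over the 27 chains, 9.12, and array 4 the lowest, 8.48.

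**Figure D3:**
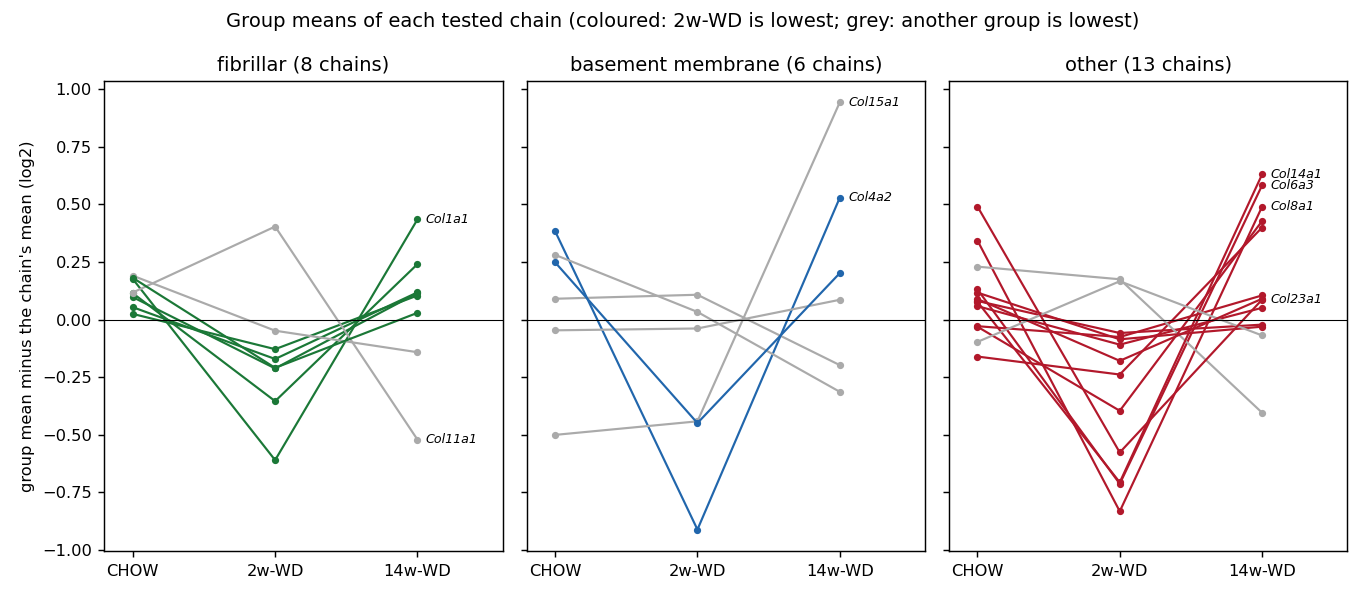
Mean log2 level of each group minus the chain's mean over all 3 groups, 1 line per tested chain in 3 panels by class, coloured where 2w-WD is the lowest group and grey where another group is. The lines dip at 2w-WD in 6 of 8 fibrillar, 2 of 6 basement membrane and 11 of 13 other chains, and Col15a1 is the basement membrane chain that stands highest at 14w-WD.

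Chains that assemble into 1 molecule or 1 fibril were compared over the 15 arrays, in 8 pairs with permutation p-values adjusted over the pairs. The arrays are taken as independent here, which the labels do not settle. Col6a1 and Col6a2, whose genes are neighbours on chromosome 10, varied most closely, with a Pearson r of 0.91 and a Spearman rho of 0.95 (permutation p = 1e-05 for each, the smallest that 100000 resamples can give, adjusted 8e-05). Col6a1 and Col6a3 did not, at r 0.03 and rho 0.25 (adjusted permutation p = 0.918 and 0.421), although all 3 chains belong to type VI collagen. Without the 2 arrays farthest from the median of Col6a1, CHOW 1 and 2w-WD 3, r was 0.88 for Col6a2 and -0.04 for Col6a3.

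The fibrillar partners also varied together. For Col1a1 and Col1a2 r was 0.80 and rho 0.87 (adjusted permutation p = 0.00101 and 0.00024), and for Col1a1 and Col3a1 r was 0.78 and rho 0.80 (0.00124 and 0.00142). Without 2w-WD arrays 2 and 4 these r values were 0.90 and 0.91. For Col3a1 and Col5a2, neighbouring genes on chromosome 1, r was 0.84 and rho 0.85 (0.00028 and 0.000293), and 0.76 without CHOW array 4 and 14w-WD array 1. As deviations from the group means, which removes the diet groups, r was 0.67, 0.72 and 0.80 for the 3 pairs. The SD within groups ran from 0.43 to 0.63 for Col1a1 and from 0.17 to 0.20 for Col1a2.

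For the other pairs the relation was weaker or depended on the groups. Col4a1 and Col4a2 had r 0.39 and rho 0.15 (adjusted permutation p = 0.203 and 0.584). Their deviations from the group means gave r 0.69 (adjusted permutation p = 0.00848), with values of 0.59 within CHOW, 0.53 within 2w-WD and 0.90 within 14w-WD over 5 arrays each. The deviations were shuffled across all arrays rather than within groups, so this p can be too small. Col5a1 and Col5a2 had r 0.40 and rho 0.31 (0.203 and 0.346), and Col8a1 and Col8a2 r 0.20 and rho 0.35 (0.536 and 0.315). Leaving out the 2 arrays farthest from the median gave 0.39, 0.19 and 0.22 for these 3 pairs.

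**Figure D4:**
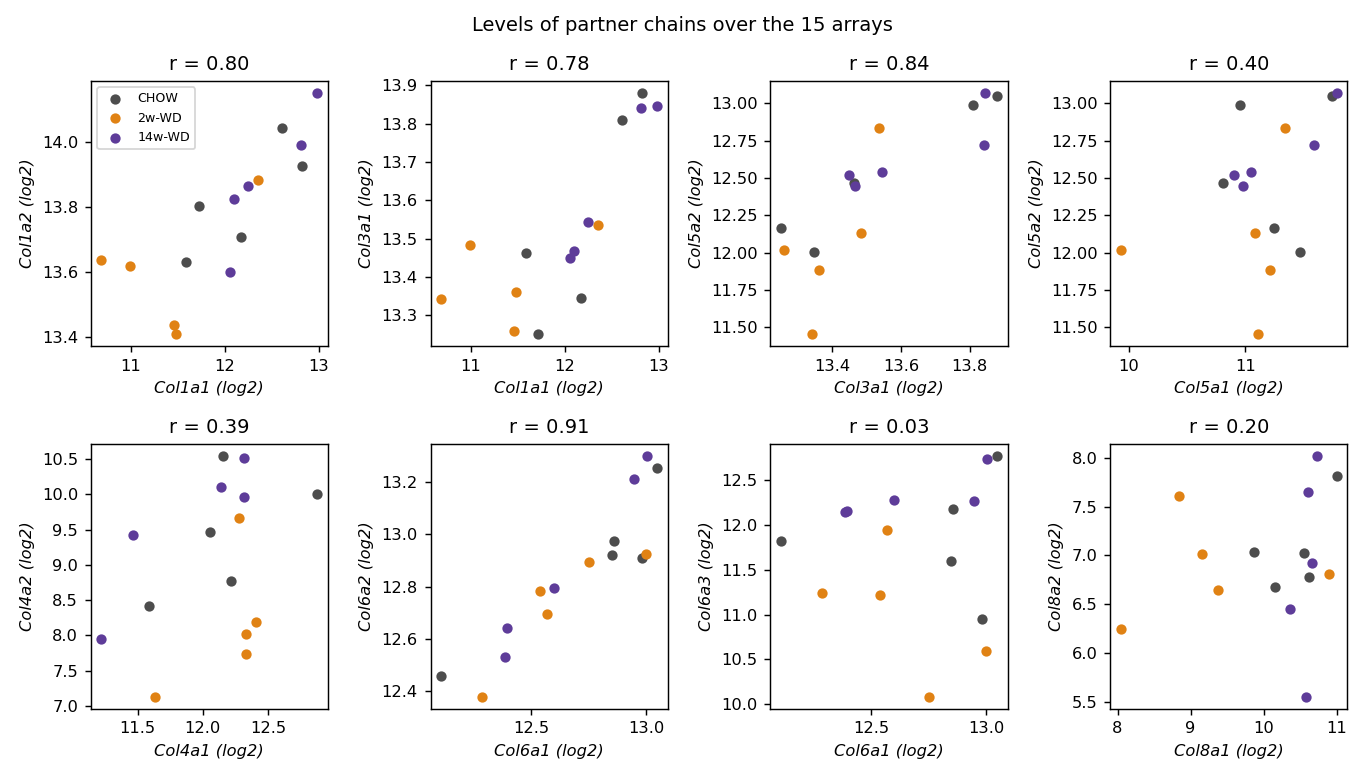
Log2 level of 1 chain against that of its partner for the 8 pairs, 1 point per array, coloured by diet group, with Pearson r over the 15 arrays above each panel. Col6a1 and Col6a2 lie close to a line (r = 0.91), Col6a1 and Col6a3 do not (r = 0.03), and for Col4a2 4 of the 5 2w-WD points lie at or below 8.19.

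Probe sets of the same chain did not always give the same size of difference. The 42 chains had 82 probe sets, of which 40 lay above the filter, and 11 chains had 13 further probe sets there beside the one that represents them. In 14w-WD against 2w-WD, 11 of the 13 had the same sign as the representing one. Fits over probe sets gave a second Col8a1 probe set a difference of 0.17 (adjusted p = 0.551 in limma), beside 1.32 for the representing one, and a second Col14a1 probe set 0.22. In the opposite direction, a dimmer probe set of Col18a1 differed by 1.92 (adjusted p = 0.0337 in limma) and one of Col5a1 by 1.64 (adjusted p = 0.0208), though the representing probe sets did not pass. The 2 further Col1a2 probe sets differed by 0.55 and 0.91, and the dimmer Col3a1 probe set by 0.86, beside 0.29 and 0.23 for the representing ones. When the probe sets of a gene were averaged, Col6a3 and Col15a1 were called, each with 1 probe set.

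**Figure D5:**
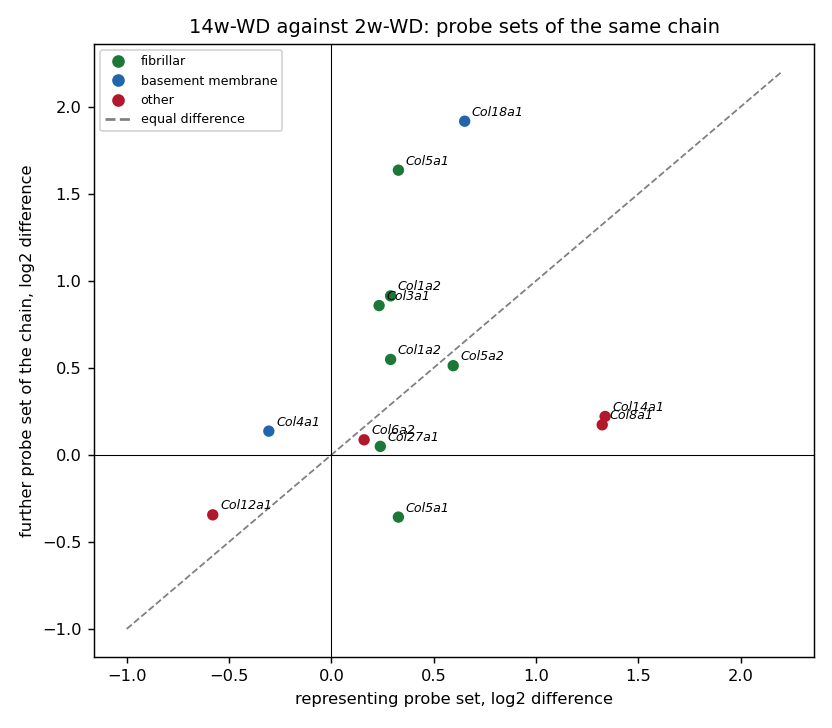
Log2 difference of 14w-WD from 2w-WD for the 13 further probe sets above the filter (vertical axis) against that of the probe set representing the same chain (horizontal axis), coloured by class, with a dashed line of equal differences. Of the 13 points, 11 lie in the quadrants of equal sign, with Col5a1 and Col18a1 far above the line and Col8a1 and Col14a1 far below it.

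Genes that act on collagen were read from the same fit, in lists by role. In 14w-WD against 2w-WD, 3 of 17 tested enzymes and chaperones of procollagen in the endoplasmic reticulum rose and 0 fell, beside 10.1% of all genes higher and 1.15% lower, with a median of 0.70 beside 0.23 over all genes. Over all 7 lists 9 of 69 genes were called (13.0%, beside 11.2% of all genes), so the share of called genes was near that of all genes. An unadjusted p under 0.05 was found in limma for 29 of the 69 (42.0%), beside 3824 of all 11925 genes. In the endoplasmic reticulum list 11 of 17 were higher and 0 lower at that level, beside 25.9% and 6.13% of all genes. Tmem38b, a potassium channel of the endoplasmic reticulum needed for collagen modification, had 8.73 ± 1.29 (SD, n = 5) for CHOW, 6.95 ± 1.22 for 2w-WD and 9.76 ± 0.44 for 14w-WD, a difference of 2.81 ± 0.6 (SE; adjusted p = 0.0155 in limma). The proline hydroxylase family member P3h3 differed by 1.79 (adjusted p = 0.0269) and the folding enzyme Fkbp14 by 1.37 (adjusted p = 0.0268). Of the whole list, 14 of 17 lay above 0, as did 65.2% of all genes.

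The list counts for 14w-WD against 2w-WD that follow stand beside 10.1% of all genes higher and 1.15% lower. Among 12 fibril-associated matrix proteins 2 rose, Fn1, which encodes fibronectin, by 0.92 and Tnc, tenascin C, by 0.97, with a list median of 0.39. In the list of processing and cross-linking enzymes 1 of 8 fell, the procollagen protease Tll1 by 0.70 on the log2 scale, while the cross-linking enzyme Lox, at 0.92 with an adjusted p of 0.085 in limma, did not pass. None of 9 basement membrane partners passed in limma, nor at an unadjusted p under 0.05, with a median of 0.30, and the 2 of highest mean level, peroxidasin (Pxdn), which cross-links type IV collagen, and perlecan (Hspg2), had differences of 0.95 and -0.11. Of 6 collagen receptors 1 fell, Itgb1, the shared beta chain of collagen-binding integrins, by 1.21 on the log2 scale, with a list median of 0.38. Of 6 collagen-cleaving proteases 1 rose, Ctsk, the macrophage and osteoclast protease cathepsin K, by 1.08, with a median of 0.45. In the TGF-beta pathway, a main inducer of collagen genes, the receptor Tgfbr2 rose by 2.25 as 1 of 11, with a median of 0.13. In both comparisons with CHOW, limma called 0 of the 69 tested genes in these 7 lists, with 14 at an unadjusted p under 0.05 for 2w-WD (20.3%, beside 9.76% of all genes) and 7 for 14w-WD (10.1%, beside 15.9%).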

How the data were processed

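RNA of laser-captured macrophages was extracted with PicoPure, amplified with RiboAmp HS and biotin-labelled, per the labels' protocols, then hybridised to an Affymetrix mouse expression array. The authors deposited 1 linear intensity per probe set and array, for 45037 probe sets. The summary over probes and the normalization behind it: not given in the sources used here. Array medians ran from 31.7 to 38.2 in intensity. Arrays have no counting depth, so their number limits the precision. No label says which animal an array came from. The p-values thus measure the spread among samples alone, and part of it may be technical.

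Probe sets were named through the platform annotation, where 34945 had 1 gene, 932 several and 9160 none. The probe set of highest mean represented a gene. Values became log2(intensity + 16), which shrinks the differences of dim genes. Genes with a mean at or above 5.66 (intensity 34.6) were fitted with limma 3.58.1 under R 4.3.3, using lmFit and eBayes with a trend, for 3 contrasts over the 15 arrays. Tests were two-sided, with Benjamini-Hochberg adjustment over 11925 genes. The members and lists were chosen with earlier results of these data known. Chains described with per-array values or ranges were those called, the 3 of highest mean in each class and the 3 of smallest unadjusted p in each comparison, and other chains are given by their differences. Genes of a list were named when called, or otherwise up to 2 of highest mean. Lox, Acta2 and the ranges of Col11a1 and Col14a1 were chosen after their values were seen. So were C1qa, C1qb, C1qc, Tagln, Lmod1, Myh11, Synpo2 and Des in 2w-WD against CHOW. The alternatives changed the pseudocount, filter, normalization, probe set summary, weights, block, groups fitted and covariates, or left out arrays. Tested on simulated data for 14w-WD against 2w-WD (11925 genes), the fit recovered 33% of changes of log2 1 and 90% of log2 2, with 9 false calls. The simulated noise was drawn independently for each gene and array, and 100 genes were changed at each size. It thus held no deviations shared by many genes of an array, so these figures do not give the recovery or false calls in the deposited data.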

Additional observations from a re-analysis of the deposited data

Results flagged for a closer look

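Each group of 5 arrays was examined for a lowest or highest value far from the rest, in the 15 chains described by array, which makes 45 groups. The measure was the gap to the nearest other array over the range of the group, and chance alone passes its limit of 0.71 in about 1 in 20 groups. For Col4a1, array 3 of 2w-WD was the lowest of its group at a log2 level of 11.63, with the next at 12.28. For Col6a1, array 1 of CHOW was the lowest at 12.11, with the next at 12.85. For Col6a3, array 1 of 14w-WD was the highest at 12.73, with the next at 12.27.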

How the results depend on the processing

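The 4 chains called in 14w-WD against 2w-WD kept their direction under every alternative run, and under 27 alternatives the count of chains went from 0 to 10. It was 2 without the filter, with quantile normalization, with the mean over probe sets and with the heart muscle covariate, 0 with the smooth muscle covariate and 10 with array weights (8 higher, 2 lower). Leaving out 1 array gave 0 to 8. Over these 15 fits Col6a3 passed in 11, Col15a1 and Col1a1 in 8 and Col8a1 in 5. The count of genes went from 1338 to 3839 with array weights, 2122 with the replicate block, 298 with the smooth muscle covariate and 3175 without the 3 arrays of lowest weight, an alternative chosen after seeing the data, and from 164 to 3536 with 1 array left out. For 14w-WD against CHOW the count of genes, 1, went to 7 with pseudocount 64 and with the smooth muscle covariate, 17 without the filter, 0 with quantile normalization and with the mean over probe sets, 2234 with array weights, 20 with the replicate block, 122 with only these groups, 1353 without the 3 arrays, and 0 to 201 with 1 array left out. The count of chains, 0, went to 2 with array weights and without the 3 arrays, 1 with the replicate block, and 0 to 1 with 1 array left out. No gene was called in 2w-WD against CHOW under any of them. The block called 6 chains in 14w-WD against 2w-WD, adding Col4a2 and Col16a1, and Col15a1 in 14w-WD against CHOW. The deviations of same-numbered arrays had a mean r of 0.095, with 7 of 15 pairs over 0.1, and those of other pairs -0.023, with 14 of 60. Of 15 arrays, 6 correlated best with their own number. Since not every same-numbered pair was over 0.1, the numbers were not taken to pair the arrays, though some may share more than a number. The causes were not tested.

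The sign changes were in differences that limma did not call on all 15 arrays. For 2w-WD against CHOW, Col12a1 was 0.12 with quantile normalization, 0.090 with the mean over probe sets, 0.13 with array weights, 0.029 with the heart muscle covariate and 0.094 without the 3 arrays. Col4a1 was -0.14 with the mean over probe sets, -0.021 with the heart muscle covariate and -0.059 without the 3 arrays, and Col4a3 0.0092 without them, from -0.25. For 14w-WD against CHOW, Col4a2 was -0.16 with quantile normalization and -0.075 with the smooth muscle covariate, Col8a1 -0.030 with quantile normalization, and Col5a2 -0.0058 without the 3 arrays. Col18a1 was 0.34 with the mean over probe sets, 0.21 with array weights and 0.034 with the heart muscle covariate, Col23a1 0.031 with array weights (-0.40 without), and Col6a2 0.026 and 0.010 with the heart and smooth muscle covariates. For 14w-WD against 2w-WD, Col6a1 was -0.060 with quantile normalization and -0.0369 with median centring, and Col4a3 0.24 with the mean over probe sets, from -0.35. With 1 array left out, 2w-WD against CHOW ranged from -0.23 to 0.24 for Col15a1, -0.13 to 0.19 for Col4a1 and -0.26 to 0.20 for Col12a1. Likewise 14w-WD against CHOW ranged from -0.0058 to 0.25 for Col5a2, -0.11 to 0.55 for Col4a2, -0.22 to 0.21 for Col18a1, -0.12 to 0.083 for Col6a2 and -0.0015 to 0.14 for Col1a2, and 14w-WD against 2w-WD from -0.049 to 0.13 for Col6a1. The correlation of Col5a1 with Col5a2 was 0.66 with the mean over probe sets, that of Col4a1 with Col4a2 0.69 in deviations from the group means and 0.60 with the mean over probe sets, and that of Col6a1 with Col6a3 -0.051 with quantile normalization, -0.046 in deviations and -0.035 without 2 arrays.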
